A study of Homo sapiens with 9 samples.

Results

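Dense clusters of TEAD peaks were studied in 786-O cells, a human line established from a clear cell carcinoma of the kidney. TEAD peaks on chromosomes 1 to 22 and X were joined wherever the gap between neighbouring edges was at most 12500 bp. Clusters were chosen by the positions of TEAD peaks alone, as joined regions with 5 or more of them. This gave 334 clusters among 15793 joined regions, and they held 2125 of the 23370 TEAD peaks used (9.09%, 95% Wilson interval 8.73% to 9.47%). Peaks in 2 intervals of chromosome 1 that hold 5S rRNA and tRNA genes, 228743000 to 228785000 and 161360000 to 161600000, were left out before joining.

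The series comprises 9 chromatin immunoprecipitation sequencing libraries from 786-O cells, 4 of them inputs, with 1 library per condition. The p65 subunit of NF-κB was immunoprecipitated under 4 conditions: cells labelled siTEAD4, control cells, cells given XMU-MP-1, and vehicle cells. TEAD was immunoprecipitated from XMU-MP-1 treated cells, and the study compared p65 binding across these conditions and its position relative to TEAD. The series holds no TEAD list for the other conditions, so a TEAD peak here is always a site called under XMU-MP-1. TEAD positions in control, vehicle and siTEAD4-labelled cells are unknown. The treatment label of the siTEAD4 sample reads siTEAD, and the identifiers of its peaks carry the name p65_Vert, which is in no label, so that list is called "labelled siTEAD4" throughout. The labels give no further treatment for the control and no TEAD protein for the TEAD antibody, and no dose or duration was found in them. All coordinates are hg19.

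TEAD proteins bind DNA and recruit the coactivators YAP and TAZ, which the Hippo kinase cascade keeps out of the nucleus. XMU-MP-1 inhibits MST1 and MST2, kinases at the head of that cascade. RELA, or p65, is the transactivating subunit of the main NF-κB dimer and enters the nucleus when its inhibitors are degraded. Transcription factor peaks that lie close together often mark large enhancers or stretches with many promoters, and such regions tend to be bound by several factors.

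The lists used held 1790 p65 peaks labelled siTEAD4, 15411 control, 1628 XMU-MP-1 and 17900 vehicle peaks. They give peaks, not read totals, so sequencing depth is unknown. No comparison of conditions has a replicate, and none has a p-value. The intervals below describe counting or the spread between joined regions within these libraries.

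The clusters were stretches of TEAD binding scattered over 23 chromosomes. These values come from the peaks that chose the members and are a description. Of the 334 clusters, 157 held 5 TEAD peaks, 77 held 6, 41 held 7 and 26 held 8. There were 7 clusters of 9 peaks and 26 clusters of 10 to 19. The median span was 22.6 kb, with an interquartile range of 15.9 to 29.6 kb and extremes of 3.48 and 84.0 kb. Together the clusters covered 8.08 Mb, or 0.266% of the length reached by the lists. TEAD peaks themselves filled a median of 12.9% of a cluster, and neighbouring TEAD summits lay a median of 3471 bp apart.

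**Figure D1:**
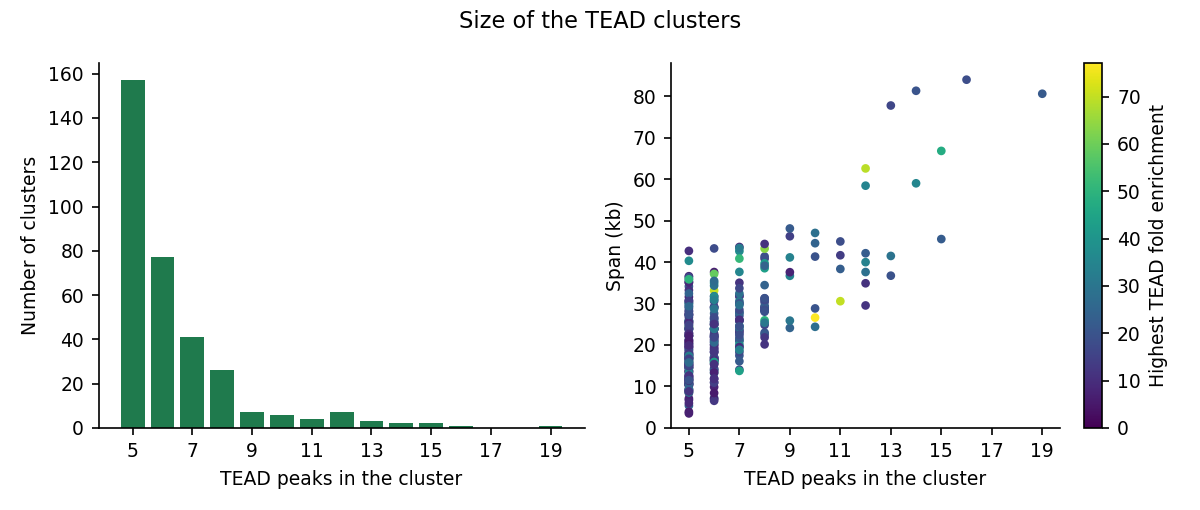
Left, number of clusters (bars) by the number of TEAD peaks they hold. Right, span in kb of each of the 334 clusters (points) against its number of TEAD peaks, coloured by its highest TEAD fold enrichment; 157 clusters hold 5 peaks, and the longest spans 84.0 kb.

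TEAD peaks of clusters had a median fold enrichment of 6.87 (interquartile range 4.96 to 11.1), against 6.25 (4.85 to 9.11) for TEAD peaks of regions with 1 to 4 peaks. Fold enrichment is the authors' value for the summit of a peak over the background used for its own list. It serves here to describe or rank peaks within a list. Median peak length was 411 bp in clusters and 345 bp in the smaller regions. The strongest TEAD peak of a cluster had a median fold of 16.3, with a range of 4.91 to 77.1 over the 334 clusters. It exceeded the median fold of its own cluster by a median factor of 2.08, and by 12.3 in the most uneven cluster. Its place along the cluster ranged from one end to the other, with a median relative position of 0.510 on a scale where 0 is the first base and 1 the last.

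The edge of the definition was gradual. Clusters with exactly 5 TEAD peaks had a median span of 17.5 kb and a median strongest fold of 13.6. Regions with 4 TEAD peaks, of which there were 368, had 14.3 kb and 12.9. Mean numbers of p65 peaks per region at 5 TEAD peaks were 0.490 labelled siTEAD4, 2.30 control, 0.471 XMU-MP-1 and 2.55 vehicle. At 4 TEAD peaks they were 0.334, 1.76, 0.299 and 2.003 in the same order of lists.

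Chromosome 1 held 35 clusters, chromosome 6 held 27 and chromosome 3 held 26. Chromosomes 13 and X held 1 each. Relative to the TEAD peaks of each chromosome, chromosome 19 had the highest share in clusters at 15.5%, followed by chromosome 6 at 11.7%. The lowest shares were 1.08% on X and 1.63% on chromosome 13.

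Nearly all clusters contained p65 peaks in the control and vehicle lists, while fewer than 1 cluster in 2 did in either treated list. A p65 peak labelled siTEAD4 lay in 147 of the 334 clusters (44.0%, 38.8% to 49.4%), and a control p65 peak in 299 (89.5%, 85.8% to 92.4%). An XMU-MP-1 peak lay in 142 clusters (42.5%, 37.3% to 47.9%), and a vehicle peak in 309 (92.5%, 89.2% to 94.9%). Over all 15793 joined regions the shares were 7.25% labelled siTEAD4, 36% control, 6.78% XMU-MP-1 and 39.7% vehicle. Longer regions with more TEAD peaks have more room for p65 peaks, so shares per TEAD peak are given further on. Only 19 clusters held no p65 peak in any list, against 55.2% of all joined regions and 41 of the 368 regions of 4 TEAD peaks. Those regions of 4 held a peak labelled siTEAD4 in 25.8% of cases, a control peak in 81.25%, an XMU-MP-1 peak in 23.9% and a vehicle peak in 85.9%. High shares in the control and vehicle lists were thus not particular to clusters.

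The list labelled siTEAD4 had a median of 0 p65 peaks per cluster, a mean of 0.722 and a maximum of 9. Its control had a median of 3, a mean of 3.13 and a maximum of 15. The XMU-MP-1 list had a median of 0, a mean of 0.760 and a maximum of 8, and its vehicle a median of 3, a mean of 3.41 and a maximum of 15. In total the clusters held 241 peaks labelled siTEAD4, 1046 control, 254 XMU-MP-1 and 1139 vehicle peaks. As shares of the lists these were 13.5% for siTEAD4-labelled peaks and 6.79% for control peaks. They were 15.6% for XMU-MP-1 and 6.36% for vehicle. The 2 treated lists were thus more concentrated in clusters than their longer references, although they put fewer peaks there.

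The treated lists often marked the same clusters. Of the 334 clusters, 122 held peaks of both treated lists, 25 held a peak labelled siTEAD4 and no XMU-MP-1 peak, 20 held an XMU-MP-1 peak and no peak labelled siTEAD4, and 167 held neither. At least 1 control p65 peak overlapped peaks of both treated lists in 116 clusters. Over all joined regions 7.25% held a peak labelled siTEAD4 and 6.78% an XMU-MP-1 peak, but regions with both were not counted. Whether the treated lists coincided more in clusters than in other TEAD regions was therefore not tested.

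**Figure D2:**
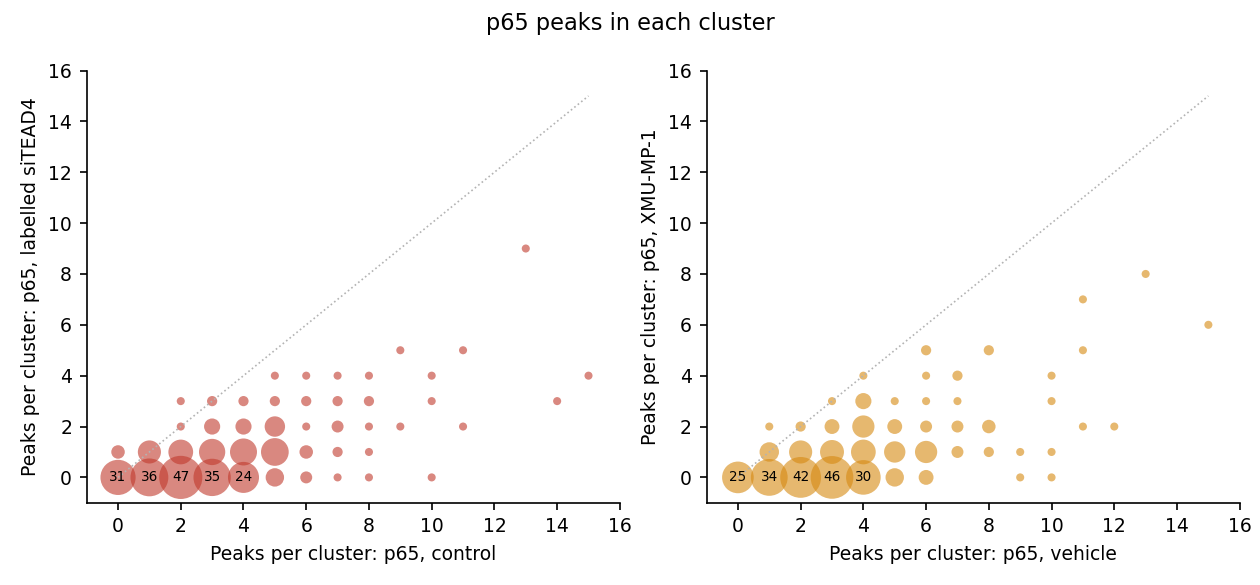
Number of p65 peaks per cluster in the list labelled siTEAD4 (vertical) against its control (horizontal), left, and in the XMU-MP-1 list against its vehicle, right; circle area grows with the number of clusters, printed where it is 20 or more, and the dotted line marks equal numbers. Most clusters lie below the line, and the highest point is a cluster with 9 peaks labelled siTEAD4 and 13 control peaks at left, and 8 XMU-MP-1 and 13 vehicle peaks at right.

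Counted per TEAD peak, p65 peaks were more frequent in clusters than in smaller regions in all 4 lists. A TEAD peak of a cluster overlapped a p65 peak labelled siTEAD4 by at least 1 bp in 10.7% of 2125 cases, against 4.99% of 21245 TEAD peaks in regions of 1 to 4 peaks. The difference was 5.74 percentage points, with a 95% interval of 4.12 to 7.35 that takes joined regions as the units. For the control list the shares were 42.4% and 29.9%, a difference of 12.53 points (9.69 to 15.4). With the XMU-MP-1 list the difference was 6.57 points (4.83 to 8.32), from 11.2% in clusters and 4.67% in smaller regions. In the vehicle list it was 12.3 points (9.51 to 15.1), from 45.7% and 33.4%. Over all TEAD peaks the shares were 5.52% labelled siTEAD4, 31% control, 5.27% XMU-MP-1 and 34.6% vehicle. Cluster TEAD peaks were also somewhat stronger. After standardising to the same deciles of TEAD fold, the differences were 4.29 points labelled siTEAD4, 10.6 control, 4.81 XMU-MP-1 and 10.5 vehicle.

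The share climbed with the size of the region before the threshold of 5 was reached. From regions of 1, 2, 3 and 4 TEAD peaks to clusters of 5 to 6, 7 to 9 and 10 to 19, the share with a peak labelled siTEAD4 was 3.62%, 5.97%, 7.01%, 7.95%, 9.38%, 8.60% and 19.7%. For XMU-MP-1 it was 3.35%, 5.58%, 6.88%, 7.20%, 9.06%, 11.1% and 20%. The control list ran from 25.8% at single TEAD peaks to 48.4% in clusters of 10 to 19, and the vehicle list from 28.9% to 49.4%. In the treated lists the 26 largest clusters had the highest shares, with Wilson intervals of 15.7% to 24.4% labelled siTEAD4 and 15.98% to 24.7% for XMU-MP-1. In clusters of 7 to 9 these intervals were 6.55% to 11.2% and 8.76% to 14.0% in the same order. Wilson intervals take TEAD peaks as units, although the peaks of the largest class lie in only 26 clusters. No interval with clusters as units was computed for this contrast, so it was not tested.

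**Figure D3:**
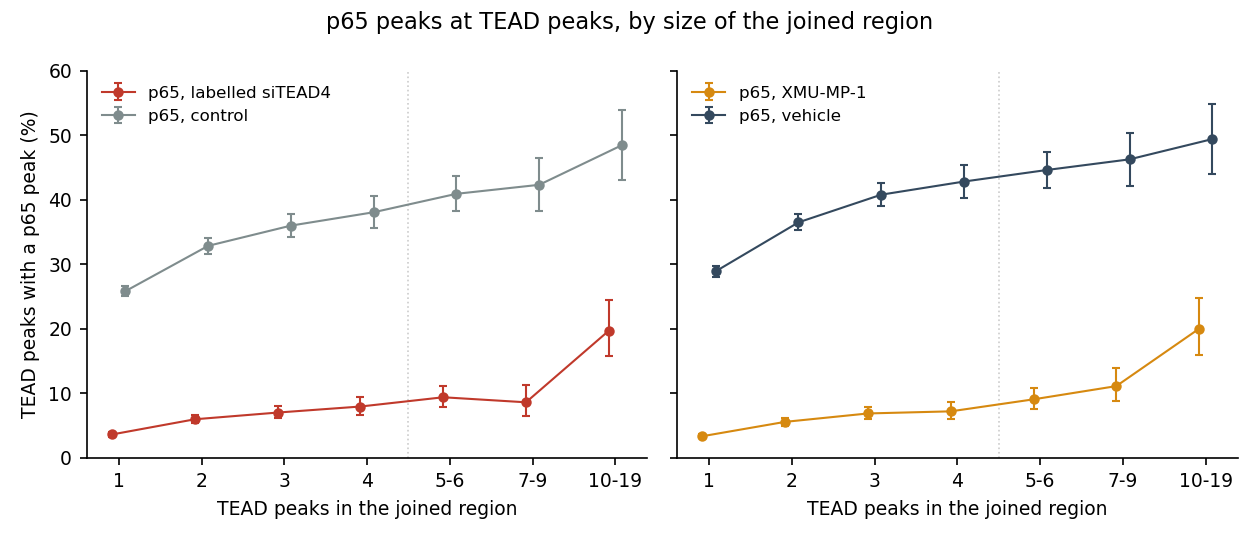
Share of TEAD peaks (percent, vertical) that overlap a p65 peak, by the number of TEAD peaks in the joined region (horizontal), for the list labelled siTEAD4 and its control at left and for XMU-MP-1 and vehicle at right; bars are 95% Wilson intervals and the dotted line separates clusters from smaller regions. All 4 lists are higher in clusters than at single TEAD peaks, and the treated lists reach 19.7% and 20% in clusters of 10 to 19 TEAD peaks.

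Within a cluster, p65 was found mostly on the TEAD peaks and more often on the strong ones. In clusters, 231 of 241 p65 peaks labelled siTEAD4 (95.9%) overlapped a TEAD peak, as did 918 of 1046 control peaks (87.8%). The same held for 243 of 254 XMU-MP-1 peaks (95.7%), and for 983 of 1139 in the vehicle list (86.3%). In the whole lists, which also hold the p65 peaks far from any TEAD peak, these shares were 72.4% labelled siTEAD4, 47.5% control, 76% XMU-MP-1 and 45.7% vehicle. Since clusters were defined by their TEAD peaks, nothing is read from that contrast. In joined regions of 4 TEAD peaks the shares were 94.3% labelled siTEAD4, 87.7% control, 96.4% XMU-MP-1 and 87.4% vehicle, each within the 95% Wilson interval of the share in clusters. The strongest TEAD peak of a cluster had a p65 peak labelled siTEAD4 in 20.4% of clusters, against 8.93% of the other TEAD peaks in clusters. The strongest peak had a control p65 peak in 57.2% of clusters, against 39.6% of the others. For XMU-MP-1 these shares were 23.1% and 9.05%, and for vehicle 60.2% and 43.0%.

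Where the peaks met, their summits were close. The median distance between the summit of a cluster p65 peak and that of its TEAD peak was 61 bp labelled siTEAD4, 57 bp control, 63 bp XMU-MP-1 and 59 bp vehicle. In regions of 1 to 4 TEAD peaks the medians were 61, 56, 55 and 60 bp in the same order. TEAD peaks with a p65 peak labelled siTEAD4 had a median TEAD fold of 11.6, against 6.58 for cluster TEAD peaks without one. Those with a control peak had 8.32, against 6.05 without. With XMU-MP-1 the medians were 12.2 and 6.55, and with vehicle 8.01 and 6.08.

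Control p65 peaks on TEAD peaks overlapped a peak of the list labelled siTEAD4 more often inside clusters than outside them. Such a control peak is called kept here, a word about lists of called peaks and not about the amount of p65 bound. In clusters 223 of 918 control peaks on a TEAD peak were kept (24.3%, 21.6% to 27.2%), and in regions of 1 to 4 TEAD peaks 1040 of 6400 (16.2%, 15.4% to 17.2%). Single TEAD peaks gave 2966 of those 6400 control peaks, and 13.7% of these were kept. Regions of 4 TEAD peaks kept 20.2% (17.1% to 23.7%). That was close to the 21.6% in clusters of 5 to 6 and the 20.1% in clusters of 7 to 9. Of all control peaks 11.1% were kept. The difference was 8.04 percentage points, with an interval over regions of 4.71 to 11.4. It was 5.45 points (2.98 to 7.92) at equal deciles of control p65 fold, 4.83 points (1.53 to 8.13) without the clusters of 10 or more TEAD peaks, and 14.0 points (7.17 to 20.8) when TEAD peaks were joined over gaps of at most 5 kb.

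The XMU-MP-1 list gave a similar picture against vehicle. In clusters 234 of 983 vehicle p65 peaks on a TEAD peak overlapped an XMU-MP-1 peak (23.8%, 21.2% to 26.6%), and in regions of 1 to 4 TEAD peaks 987 of 7201 (13.7%, 12.9% to 14.5%). Regions of 4 TEAD peaks kept 15.8% (13.2% to 18.9%), clusters of 5 to 6 kept 20.3% and clusters of 7 to 9 kept 23.4%. Among all vehicle peaks the share was 8.69%. The difference of 10.1 points had an interval of 6.74 to 13.5. At equal deciles of vehicle p65 fold it was 7.61 points (5.26 to 9.96), and with a joining gap of 5 kb it was 15.8 points (8.44 to 23.1).

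The 2 reference lists also met each other more often in clusters. Control peaks on a TEAD peak overlapped a vehicle peak in 88.3% of cases in clusters and 83.1% in smaller regions, a difference of 5.20 points (2.97 to 7.44). The share among all control peaks was 79.5%. Vehicle peaks on a TEAD peak overlapped a control peak in 82.1% of cases in clusters and 74.0% in smaller regions, a difference of 8.05 points (5.26 to 10.8), with 68.5% among all vehicle peaks. More frequent overlap inside clusters was therefore not confined to the treated lists. Whether the treated lists gained more from clustering than the references was not tested.

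The largest clusters kept the most. From regions of 1, 2, 3 and 4 TEAD peaks to clusters of 5 to 6, 7 to 9 and 10 to 19, control peaks on TEAD peaks were kept by the siTEAD4-labelled list at 13.7%, 17.7%, 18.8%, 20.2%, 21.6%, 20.1% and 39.6%. The vehicle peaks kept in the XMU-MP-1 list were 11.4%, 15.2%, 16.3%, 15.8%, 20.3%, 23.4% and 36.9%. In clusters of 10 or more this was 63 of 159 control peaks and 59 of 160 vehicle peaks. Without the cluster that kept most p65 peaks, on chromosome 5, it was 56 of 149 (37.6%) and 53 of 151 (35.1%). These large clusters were far from uniform. Among the 24 of them with a control peak on a TEAD peak or between TEAD peaks, the share kept ranged from 0% to 80% with a median of 35.4%, and 2 kept none. Among 24 with a vehicle peak the range was 0% to 83.3% with a median of 26.8%, and 4 kept none.

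**Figure D4:**
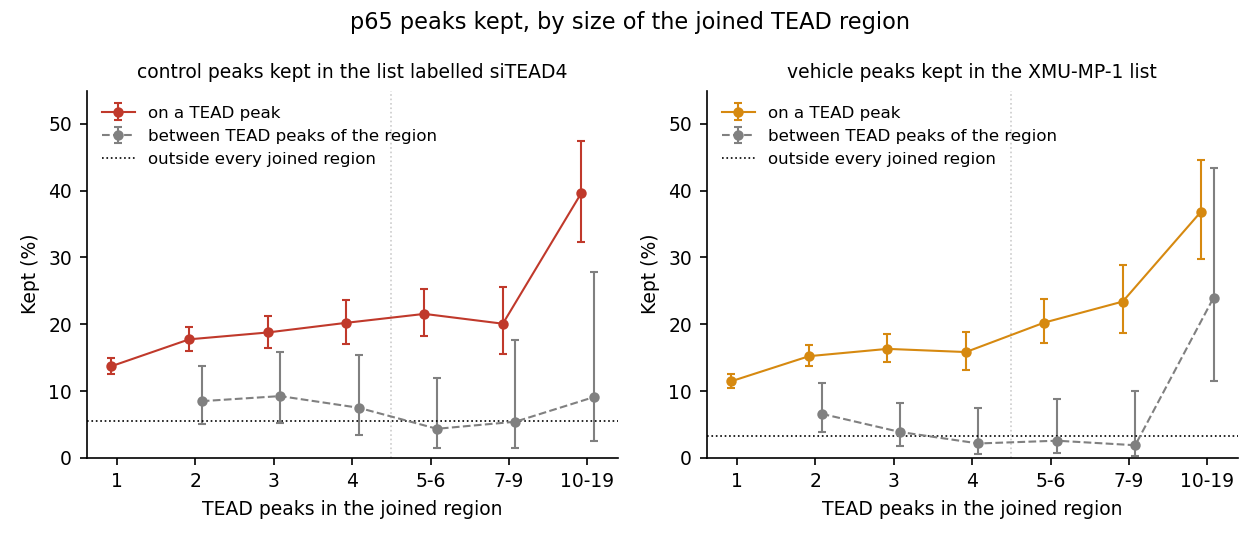
Percent of p65 peaks kept, from control to the siTEAD4-labelled list (left) and from vehicle to the XMU-MP-1 list (right), by the number of TEAD peaks in the joined region, for peaks on a TEAD peak, peaks between the TEAD peaks of a region, and peaks outside every joined region (dotted horizontal line); bars are 95% Wilson intervals. On TEAD peaks the share reaches 39.6% and 36.9% in clusters of 10 to 19, and the last point between TEAD peaks at right rests on 6 of 25 peaks.

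Control peaks inside a cluster that touched no TEAD peak were kept about as often as control peaks outside every joined region. Of 128 control p65 peaks between the TEAD peaks of clusters, 7 were kept in the list labelled siTEAD4 (5.47%, 2.67% to 10.9%). Outside every joined region 414 of 7601 were kept (5.45%), a difference of 0.0221 points with an interval of -4.83 to 4.88. Between the TEAD peaks of regions of 2, 3 and 4, control peaks were kept at 8.48%, 9.24% and 7.5%. Within clusters, peaks on TEAD peaks exceeded those between them by 18.8 points (13.03 to 24.6). For vehicle peaks, 9 of 156 between TEAD peaks of clusters had an XMU-MP-1 peak (5.77%, 3.06% to 10.6%), against 305 of 9130 outside (3.34%), a difference of 2.43 points (-1.39 to 6.24). On TEAD peaks the share exceeded that between them by 18.0 points (13.03 to 23.04). Of the 9 kept vehicle peaks between TEAD peaks, 6 lay in clusters of 10 or more. Between the TEAD peaks of regions of 2, 3 and 4, vehicle peaks were kept at 6.59%, 3.87% and 2.15%.

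Although few p65 peaks lay between the TEAD peaks of clusters, they were denser there than outside every joined region. This was not shown to be particular to clusters. Regions of 4 TEAD peaks, spanning 5370 kb in all, held 80 control and 93 vehicle peaks between TEAD peaks. Clusters, spanning 8079 kb, held 128 and 156. No density was computed for the regions of 4. Per Mb of cluster not covered by TEAD peaks there were 1.41 peaks labelled siTEAD4, 18.1 control, 1.56 XMU-MP-1 and 22.1 vehicle peaks. Outside joined regions there were 0.150, 2.54, 0.118 and 3.05 per Mb in the same order, over a length that runs to the last position any list reaches on each chromosome and includes unmappable sequence.

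Control p65 peaks kept in both treated lists were also more frequent in clusters. On TEAD peaks of clusters 181 of 918 control peaks (19.7%) overlapped both a peak labelled siTEAD4 and an XMU-MP-1 peak, against 725 of 6400 (11.3%) in smaller regions and 7.55% of all control peaks. In clusters of 10 or more the share was 33.3%.

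Many clusters kept no p65 peak of the reference list, and few kept all. Of the 299 clusters with a control peak, 160 (53.5%) kept none in the list labelled siTEAD4 and 15 kept all, of which 11 had a single control peak. Of the 309 with a vehicle peak, 170 (55.02%) kept none in the XMU-MP-1 list and 11 kept all, of which 10 had a single vehicle peak. Among clusters with 5 or more peaks in the reference, 14 of 76 kept no control peak and 17 of 78 kept no vehicle peak. At single TEAD peaks only 13.7% of 2966 control peaks and 11.4% of 3331 vehicle peaks were kept. Those shares count peaks, and the share of smaller regions that kept none was not counted. Keeping none is therefore not read as a trait of clusters.

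The clusters named next follow a fixed rule: most TEAD peaks, highest TEAD fold, most p65 peaks in the control and vehicle lists, most control peaks kept in both treated lists, most TEAD peaks without any p65, or densest. Gene names beside them are background knowledge of where those genes lie in hg19. No annotation of that build was used here, no distance was measured, and no gene is shown to respond to a cluster.

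The cluster that kept most p65 peaks covered 34.9 kb of chromosome 5, between 150439504 and 150474389, at TNIP1, which encodes a partner of A20 that restrains NF-κB signalling. It held 12 TEAD peaks of modest strength, the highest with a fold of 11.1. It had 9 p65 peaks labelled siTEAD4, 13 control, 8 XMU-MP-1 and 13 vehicle peaks, and 9 of its control peaks were kept in both treated lists. Of its 12 TEAD peaks, 10 had p65 in some list and 6 in all 4 lists. The TEAD peak from 150447696 to 150448153 had a TEAD fold of 4.61, and the p65 peak there had folds of 6.67 labelled siTEAD4, 21.6 control, 4.34 XMU-MP-1 and 23.2 vehicle. One p65 site between TEAD peaks, from 150462744 to 150463378 in the control list, was present in all 4 lists, with folds of 8.94 labelled siTEAD4, 10.5 control, 8.79 XMU-MP-1 and 23.4 vehicle. Folds of different lists are each relative to their own background and show no change between lists.

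On chromosome 15 a cluster of 15 TEAD peaks ran over 45.6 kb from 67397578 to 67443136, within SMAD3, a transcription factor of the TGF-β pathway. It held 5 p65 peaks labelled siTEAD4, 11 control, 7 XMU-MP-1 and 11 vehicle peaks, and 5 of its TEAD peaks had p65 in all 4 lists. The strongest TEAD peak, from 67401504 to 67402519 with a fold of 22.1, had p65 folds of 9.59 labelled siTEAD4, 8.81 control, 12.4 XMU-MP-1 and 10.7 vehicle. The strongest p65 site lay elsewhere, on the TEAD peak from 67413334 to 67413853 with a TEAD fold of 10.2, where p65 folds were 6.79 labelled siTEAD4, 25.6 control, 11.5 XMU-MP-1 and 24.9 vehicle. All 5 TEAD peaks without p65 in any list had TEAD folds between 5.67 and 7.17.

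A cluster on chromosome 9 from 114774366 to 114836972 combined a very strong TEAD peak with strong p65. It held 12 TEAD peaks over 62.6 kb, with 5 p65 peaks labelled siTEAD4, 9 control, 5 XMU-MP-1 and 11 vehicle peaks. At the TEAD peak from 114790967 to 114791570, with a TEAD fold of 11.2, p65 folds were 22.1 labelled siTEAD4, 27.2 control, 16.2 XMU-MP-1 and 35.7 vehicle. At the highest TEAD peak, from 114803812 to 114804795 with a fold of 69.1, p65 folds were 9.49 labelled siTEAD4, 12.4 control, 16.2 XMU-MP-1 and 11.8 vehicle.

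Of the other clusters with the highest TEAD folds, 2 kept p65 at that TEAD peak and 2 did not. On chromosome 22 from 30578492 to 30609055, the TEAD peak with a fold of 70.0 had p65 folds of 7.95 labelled siTEAD4, 6.41 control, 12.4 XMU-MP-1 and 5.99 vehicle. On chromosome 1 from 86064742 to 86089127, beside CCN1, a secreted matrix protein gene that is a standard YAP and TEAD target, the TEAD peak with a fold of 64.7 had p65 folds of 7.53 labelled siTEAD4, 9.02 control, 10.7 XMU-MP-1 and 8.68 vehicle. All 3 control peaks of that cluster were kept in both treated lists. This did not hold for the neighbouring cluster, from 86042249 to 86050914, which the rule did not choose. With 5 TEAD peaks, it held 1 p65 peak labelled siTEAD4, 1 control, 1 XMU-MP-1 and 2 vehicle peaks. Its control peak was not kept in both treated lists. On chromosome 2 from 235872610 to 235905742, the TEAD peak with a fold of 70.2 had a control p65 peak with a fold of 5.42 and a vehicle peak with a fold of 5.09, and no peak in the list labelled siTEAD4 or the XMU-MP-1 list. A second TEAD peak of that cluster, with a fold of 52.6, had p65 in all 4 lists. On chromosome 19 from 2523632 to 2550234, which held the highest TEAD fold of all at 77.1, no treated p65 peak lay on that site. The single peak of each treated list in the cluster lay on a TEAD peak with a fold of 9.06.

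A cluster on chromosome 11 from 65648539 to 65686882 spans FOSL1, which encodes the AP-1 subunit FRA-1. It held 11 TEAD peaks and 4 p65 peaks labelled siTEAD4, 10 control, 5 XMU-MP-1 and 8 vehicle peaks. Its strongest p65 site lay on a TEAD peak with a fold of 5.51, from 65680221 to 65680691, with p65 folds of 9.001 labelled siTEAD4, 28.9 control, 11.5 XMU-MP-1 and 24.3 vehicle. On chromosome 21 from 43021710 to 43099499, 13 TEAD peaks spread over 77.8 kb carried 4 p65 peaks labelled siTEAD4, 7 control, 4 XMU-MP-1 and 7 vehicle peaks, all on TEAD peaks.

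**Figure D5:**
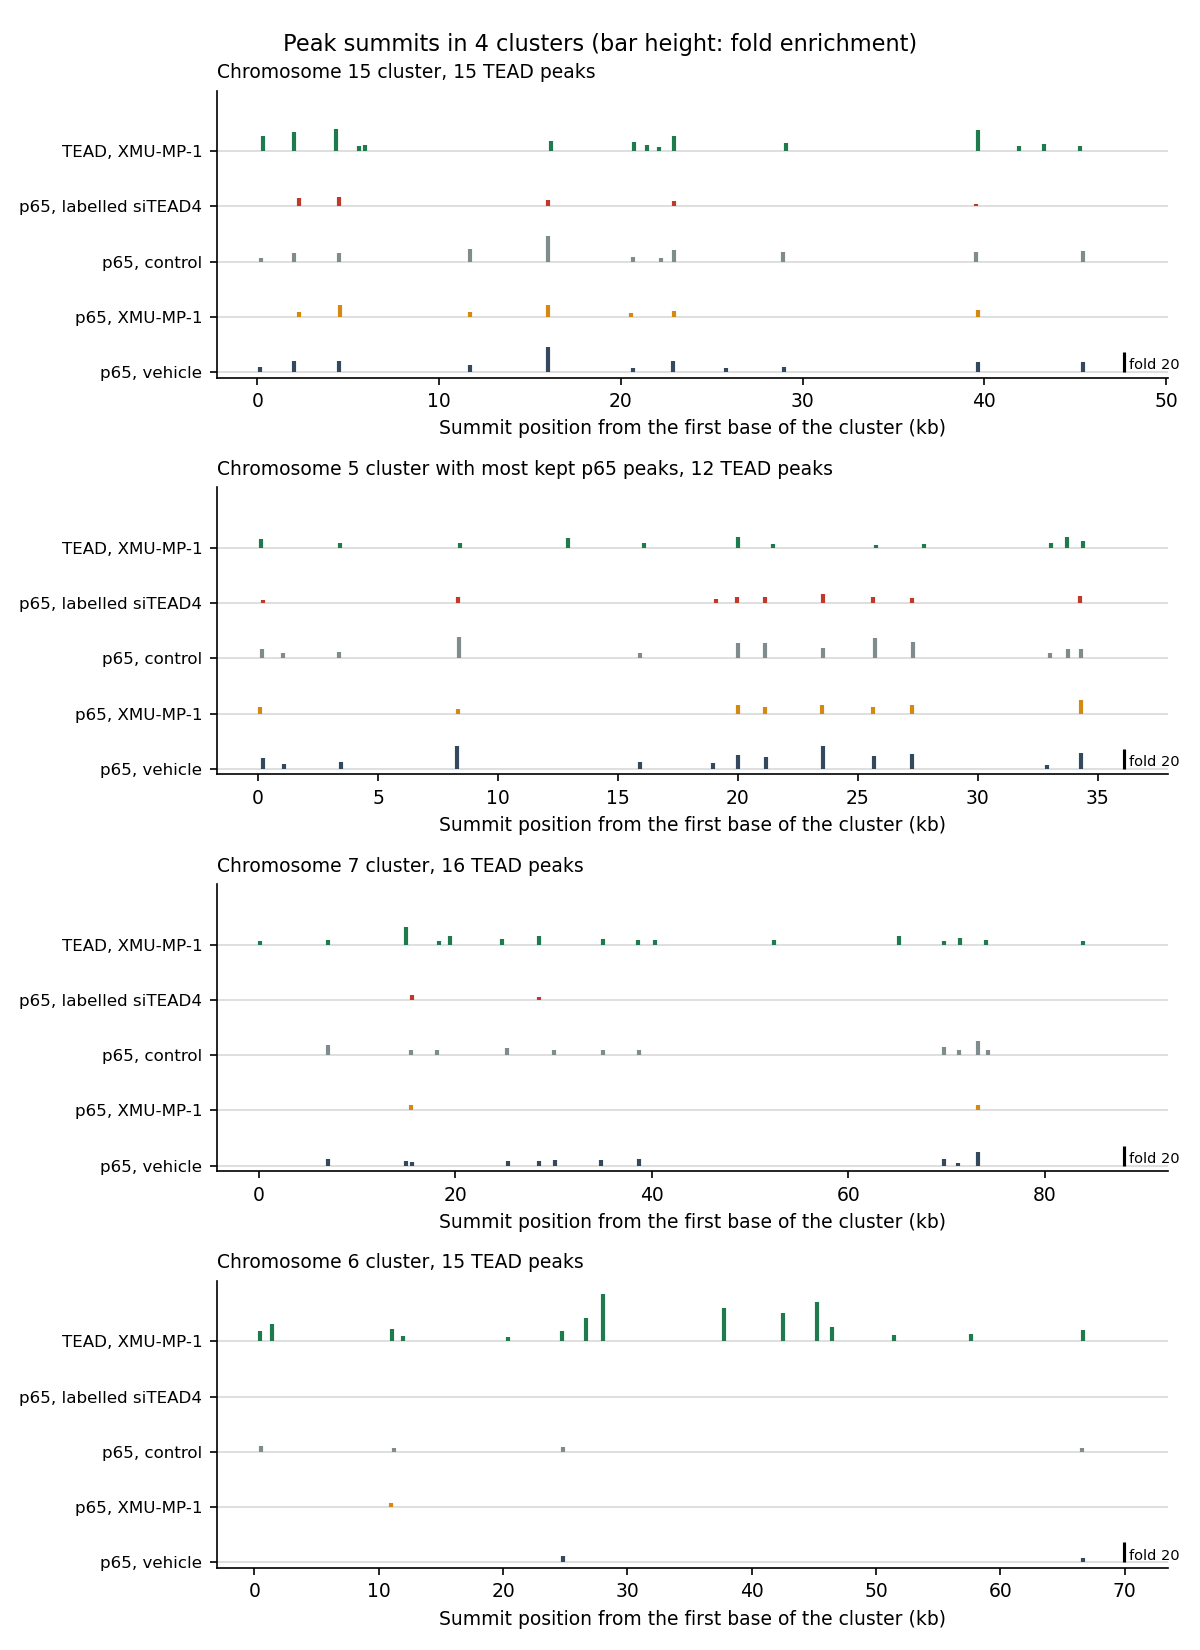
Summits of TEAD and p65 peaks (vertical bars, height proportional to the fold enrichment in the peak's own list, scale bar for a fold of 20) along 4 clusters, in kb from the first base of each cluster, with the treated p65 list above its reference. The chromosome 5 and 15 clusters have p65 bars in all 4 lists at many TEAD peaks, the chromosome 7 cluster has 2 p65 peaks in each treated list against 11 in each reference, and the chromosome 6 cluster has strong TEAD bars and almost no p65.

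The largest clusters included some with many reference p65 peaks and few treated ones. The longest, 84.0 kb on chromosome 7 from 27135540 to 27219562, covers part of the HOXA homeobox gene cluster and held 16 TEAD peaks. It had 2 p65 peaks labelled siTEAD4, 11 control, 2 XMU-MP-1 and 11 vehicle peaks, and 1 control peak was kept in both treated lists. That peak lay on its strongest TEAD peak, with a TEAD fold of 18.3 and p65 folds of 4.70 labelled siTEAD4, 5.64 control, 4.89 XMU-MP-1 and 4.20 vehicle. The strongest p65 peak of the cluster lay between TEAD peaks, with folds of 14.5 control, 5.73 XMU-MP-1 and 13.4 vehicle, and no peak in the list labelled siTEAD4.

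On chromosome 8 the largest cluster by peak number, 19 TEAD peaks from 128863806 to 128944434 in the PVT1 gene downstream of MYC, had p65 in some list at 11 of its TEAD peaks and in all 4 lists at 2. Both of these had TEAD folds below that of its strongest peak, at 10.0 and 13.6, and the strongest lacked an XMU-MP-1 peak. A separate small cluster on the same chromosome, from 128746235 to 128750111 at MYC itself, was among the densest, with 5 TEAD peaks in 3.88 kb or 1.29 per kb. Its TEAD folds did not exceed 5.88. It had 2 control p65 peaks with folds of 3.37 and 3.23, and none in the list labelled siTEAD4, the XMU-MP-1 list or the vehicle list.

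The most p65 peaks in the reference lists, 15 control and 15 vehicle, lay on chromosome 6 from 43958741 to 44040087, downstream of VEGFA, the angiogenic growth factor that renal carcinoma cells overproduce. This cluster of 14 TEAD peaks over 81.3 kb held 4 p65 peaks labelled siTEAD4, and 6 from XMU-MP-1 cells. On its strongest TEAD peak, with a fold of 20.2, p65 folds were 4.13 labelled siTEAD4, 5.59 control, 6.15 XMU-MP-1 and 9.74 vehicle. Second to it in TEAD fold, at 16.3, came a TEAD peak with no p65 in any list.

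The remaining large clusters showed intermediate counts. On chromosome 5 from 149838459 to 149897476, with 14 TEAD peaks, there were 3 p65 peaks labelled siTEAD4, 8 control, 4 XMU-MP-1 and 10 vehicle peaks. The strongest TEAD peak there, with a fold of 35.5, had no p65 in any list. On chromosome 14 from 62020306 to 62061788, with 13 TEAD peaks, there were 2 peaks labelled siTEAD4, 6 control, 1 XMU-MP-1 and 6 vehicle peaks. The TEAD peak with the highest fold there, 29.4, was the site with p65 in all 4 lists.

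The densest cluster, on chromosome 10 from 26774104 to 26777580, packed 5 TEAD peaks into 3.48 kb, or 1.44 per kb. It had no peak labelled siTEAD4, 1 control peak, no XMU-MP-1 peak and 2 vehicle peaks. On chromosome 2 from 110858763 to 110864121, 5 TEAD peaks in 5.36 kb had 2 p65 peaks labelled siTEAD4, 3 control, 1 XMU-MP-1 and 2 vehicle peaks.

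Clusters that kept no p65 peak despite many in the references were picked out after their values were seen. On chromosome 11 from 118781066 to 118809519, 8 TEAD peaks came with 10 control and 9 vehicle p65 peaks, and with none labelled siTEAD4 and none in the XMU-MP-1 list. On chromosome 17 from 76326861 to 76356469, at SOCS3, a feedback inhibitor of cytokine signalling, 7 TEAD peaks came with 7 control and 10 vehicle peaks and none in either treated list. On chromosome 1 from 156083811 to 156100356, at LMNA, which encodes lamins of the nuclear envelope, the numbers were 5 TEAD, 6 control and 6 vehicle peaks, again with none in either treated list.

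Clusters on a stretch of chromosome 6 had strong TEAD peaks and few p65 peaks. Of the 27 clusters on chromosome 6, 11 lay between 26198055 and 28921301, the part of the short arm that holds the large histone and tRNA gene clusters. Their 79 TEAD peaks had a median TEAD fold of 14.1 (interquartile range 6.98 to 21.6), against 6.76 (4.94 to 10.8) for the 2046 TEAD peaks of the other 323 clusters. p65 peaks were few among them: 0 of 79 TEAD peaks had a p65 peak labelled siTEAD4, 5 a control peak (6.33%), 1 an XMU-MP-1 peak (1.27%) and 4 a vehicle peak (5.06%). In the other 323 clusters the shares were 11.1% labelled siTEAD4, 43.8% control, 11.6% XMU-MP-1 and 47.3% vehicle. No p65 peak of any list lay in 5 of the 11 clusters, against 14 of the other 323. The group was delimited after its values were seen and is a description. High median TEAD folds were also found elsewhere, in most cases with few p65 peaks. Of the 8 clusters with the highest median TEAD fold, 4 lay in this stretch and 4 on other chromosomes. The first of these 4, on chromosome 1 from 145382464 to 145399544, had a median TEAD fold of 30.6 over 5 TEAD peaks and a single p65 peak, labelled siTEAD4. On chromosome 5 from 180633596 to 180650441 the median was 27.5, with 1 p65 peak labelled siTEAD4, 0 control, 2 XMU-MP-1 and 2 vehicle peaks. Of its 5 TEAD peaks, 2 had an XMU-MP-1 peak and 2 a vehicle peak, so p65 was not sparse there in those lists. On chromosome 11 from 59317929 to 59334132 it was 26.7, with 2 vehicle peaks and none in the other lists. On chromosome 14 from 21077295 to 21101649 it was 22.6, with 1 control and 1 vehicle peak.

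The largest of the 11 clusters in the chromosome 6 stretch, from 26285334 to 26352165, held 15 TEAD peaks over 66.8 kb. Of its TEAD peaks, 5 had TEAD folds between 23.5 and 47.4. None of these 5 had p65 in any list. Its 4 control p65 peaks, 1 XMU-MP-1 peak and 2 vehicle peaks lay on 4 TEAD peaks with TEAD folds between 10.3 and 12.6, and there was no peak labelled siTEAD4. Of the 4 clusters with most TEAD peaks among those without any p65, 2 belonged to the same stretch, from 28678234 to 28726347 with 9 TEAD peaks and from 28757433 to 28785268 with 7. The others lay on chromosome 19 from 50595658 to 50640639, with 11 TEAD peaks and a highest fold of 18.2, and on chromosome 16 from 3221919 to 3246302, with 10 TEAD peaks and a highest fold of 27.5.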

How the data were processed

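The submitters' processing notes name hg19 and the programs fastp, Bowtie2 2.4.5 and MACS2; the input used for each list is not given in the sources used here. The authors deposited 1 narrowPeak list per immunoprecipitate. Each deposited peak carries the authors' fold enrichment, a ratio of the summit over background. The authors also deposited the −log10 of its p-value, that of its q-value, and a score that was not used. The summit position, in bp from the peak start, is also deposited. Peak numbers skip 18 values in the list labelled siTEAD4, 14 in the control, 7 in the XMU-MP-1, 147 in the vehicle and 96 in the TEAD list.

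TEAD peaks were joined at gaps up to 12.5 kb after peaks on other chromosomes and those meeting the 2 excluded intervals were left out. Lists were compared in Python 3.11.15 with numpy 2.4.6 and pandas 2.3.3, counting overlaps of at least 1 bp. Shares have 95% Wilson intervals. Differences of shares have 95% intervals whose standard error takes joined regions as units (linearised ratio estimator). Intervals cover counting and the spread between regions, not the spread between experiments. Standardised differences weight 10 classes of fold alike. The code was tested on simulated peaks with known overlaps.

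The clusters, rules and lists were chosen with earlier results of these data known. The regions named were the 8 clusters with most TEAD peaks, the 5 with the highest TEAD fold, the 5 with most control plus vehicle peaks, the 5 with most control peaks kept in both treated lists, the 4 with most TEAD peaks and no p65, the 3 densest and the 3 longest. Alternatives were other joining gaps, minimum numbers of TEAD peaks, overlap rules and q-value limits. Gene lists and motifs were not analysed, because no hg19 genome or annotation was used here.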

Additional observations from a re-analysis of the deposited data

How the results depend on the processing

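The number of clusters depends on the definition: 101 with a joining gap of 5 kb, 680 with 25 kb, 183 when TEAD peaks with −log10 q of at least 5 were joined and 63 at 10 or more. Of 92 recomputed differences of shares between clusters and smaller regions, 91 kept their sign and an interval above 0, and none changed sign. The exception was the overlap of control with vehicle peaks at a gap of 5 kb, 2.53 points (-1.92 to 6.97). The difference for control peaks kept among siTEAD4-labelled peaks ranged from 4.83 to 14.0 points over 12 alternatives, and in vehicle peaks kept in the XMU-MP-1 list from 7.15 to 15.8. Mean p65 peaks per cluster moved beyond their interval in 14 of 28 recomputations. With 4 or more TEAD peaks they were 0.519 labelled siTEAD4, 2.41 control, 0.519 XMU-MP-1 and 2.67 vehicle, and with 6 or more 0.927, 3.87, 1.02 and 4.18. At a gap of 5 kb they were 2.63 control and 2.76 vehicle, at 25 kb 3.43 and 3.79, and with −log10 q of at least 5 in all lists 2.86 and 3.04. For these moves the cause was not tested. Leaving out the 11 chromosome 6 clusters, the chromosome 5 cluster or the clusters of 10 or more, and standardising to TEAD fold for kept peaks, were chosen after seeing the data. So were all alternatives for the mean numbers, for TEAD peaks with a siTEAD4-labelled or control p65 peak, and for the overlap of the control and vehicle lists with each other. No paired analysis was possible because there is a single library for each condition. Depth is unknown, so a peak missing from a list is not shown to be unbound.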
